A study of Mus musculus with 12 samples.

Results

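The comparison described here sets mitotic against asynchronous G1E cells, a murine erythroid progenitor line without the transcription factor GATA1. It uses 6 of the 12 DNase-seq libraries of the series, chosen by their labels, with 3 libraries per stage. G1E cells descend from strain 129 embryonic stem cells in which the GATA-1 gene was disrupted, and both stages carry this disruption. Mitotic cells were arrested with nocodazole at 200 ng/ml for 7 h and then sorted for phosphorylated histone H3, while asynchronous cells had neither the drug nor the sort. Drug, sort and mitosis therefore cannot be told apart in these groups. All cells were fixed with 0.1% formaldehyde for 10 min. The 6 libraries of G1E-ER4, a subline with inducible GATA1 that was given 100 nM estradiol for 22 h, served as lists that took no part in choosing the G1E regions, and their mitotic cells had the same nocodazole treatment and sort. The labels give the line's surface markers as Ter119-CD71- and Ter119-CD71+. Nothing in them ties a replicate to a culture of its own. Each p-value is therefore set against the variation among these libraries alone, part of which may be technical.

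DNase I cuts DNA most readily where nucleosomes are displaced, as at active promoters, enhancers and insulators, and a peak marks a stretch with many cuts. In mitosis chromosomes condense, transcription largely stops and many transcription factors leave the DNA, yet a share of accessible sites stays open and is discussed as a form of memory through cell division. GATA1 drives red cell maturation, and in its absence G1E cells remain as dividing progenitors.

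Each library is represented by the authors' list of its 100000 peaks of highest signal on build mm9, of which 98885 to 99677 per list lay on chromosomes 1 to 19 and were used. The rank of a peak is its place by signal in its own list, with 1 the highest. Read depth is unknown from these files. Peak names end in a number that starts at 1 and rises with position along each chromosome in every list. No source says what it is. If it numbers the calls made before the lists were limited, as assumed below, there had been at least 447012, 273095 and 330132 calls in asynchronous replicates 1, 2 and 3 and at least 586668, 444707 and 421103 in mitotic replicates 1, 2 and 3. Several lists stood apart. Replicate 1 of both stages held 13.8% (asynchronous) and 15.9% (mitotic) of its peaks on chromosome 4, against 4.71% to 7.47% in the other 4 lists. Mitotic replicate 1 also had the flattest signal curve, with the peak at rank 10000 at 1.86 times the signal of the last peak, against 2.42 to 6.30 times in the other 5. Asynchronous replicates 2 and 3 had the narrowest peaks, with medians of 356 and 415 bp. No annotation of mm9 was used here, so regions are named by position and the line's marker genes were not examined.

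Overlapping peaks of the 6 lists were merged into 222805 regions. A region is called kept where all 6 lists had a peak, lost where the 3 asynchronous lists and no mitotic list had one, and gained in the opposite case. These names describe lists limited by rank: a lost region had no peak among the highest of any mitotic list, which is not the same as closed chromatin. Kept regions numbered 20608 (9.25% of all regions), lost regions 7834 (3.52%) and gained regions 7297 (3.28%). Of the 40838 regions of all 3 asynchronous lists, 50.5% were in all 3 mitotic lists, 17.8% in 2, 12.5% in 1 and 19.2% in none. Of the 37111 regions of all 3 mitotic lists, 55.5% were in all 3 asynchronous lists and 19.7% in none. The single mitotic lists differed: replicate 1 held 57.6% of the asynchronous regions, and replicates 2 and 3 held 70.5% and 71.5%. Without asynchronous replicate 1 or 2 the lost regions numbered 12517 or 11795, without mitotic replicate 1, 2 or 3 the gained regions numbered 14033, 11441 or 13240, and without replicate 1 of both stages, chosen after seeing the data, the counts were 14475 lost and 19542 gained. Part of any such rise follows from asking fewer lists to show the pattern.

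Loss was rare among the top ranks. None of the 4189 regions with a mean asynchronous rank up to 5000 was lost, and 99.0% of them were kept. Between ranks 5001 and 10000, 6 of 4594 regions were lost. The share then climbed from 2.20% at ranks 10001 to 15000 to 7.16%, 21.3% and 35.4% in the next 3 classes, and stayed between 34.6% and 37.1% in the classes from rank 40001 on. Gain followed another course. None of the mitotic regions up to rank 10000 was absent from the asynchronous lists, and the share rose in every class from 0.319% at ranks 10001 to 15000 to 58.4% beyond rank 70000. The plot of presence by rank shows both courses.

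**Figure D1:**
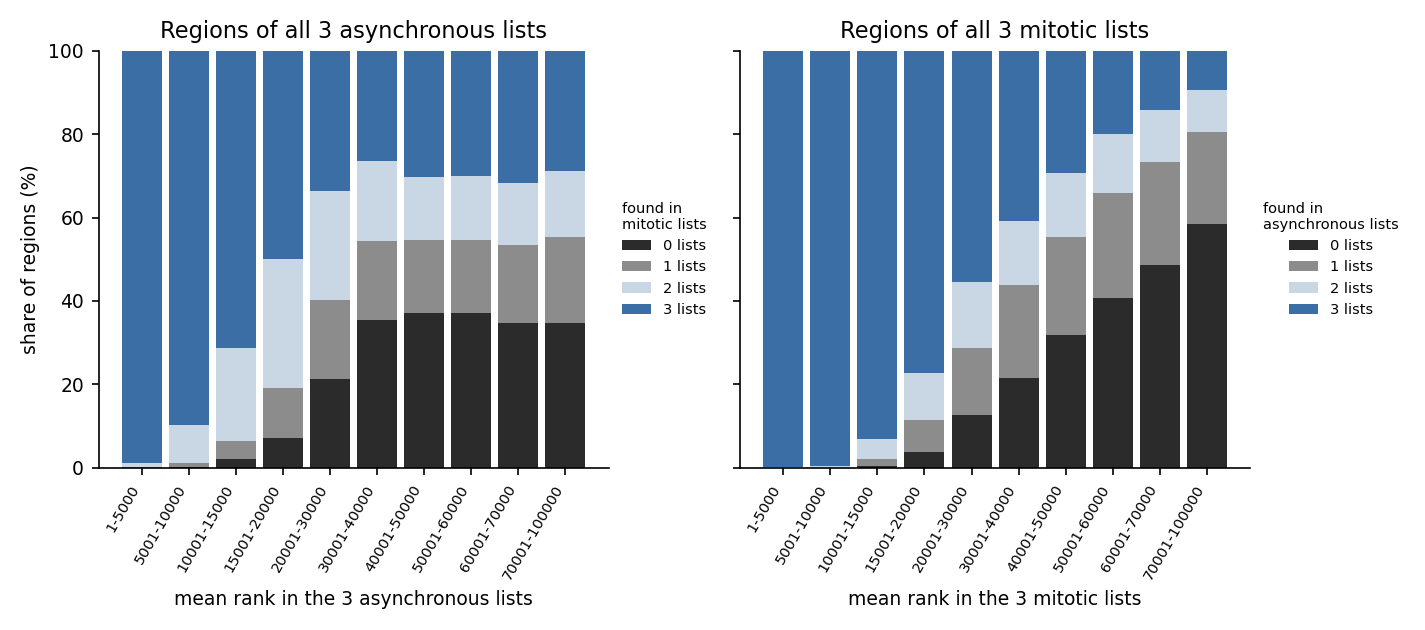
Share of regions (vertical axis, %) by the number of lists of the other stage that held them, in classes of mean rank (horizontal axis, strongest at left), for regions of all 3 asynchronous lists (left) and all 3 mitotic lists (right) of G1E. The black part, regions in no list of the other stage, levels off near 35% on the left and climbs to 58.4% on the right.

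The lost regions were narrower and ranked weaker than the 40838 regions of all 3 asynchronous lists, which include them. Their median width was 623 bp, against 1412 bp in these 40838, 2378 bp in kept and 1738 bp in gained regions. It was close to the 617 bp of all regions. Their median asynchronous rank was 40930 (quartiles 30221 and 54100). That of the 40838 regions was 24120 (quartiles 11614 and 42331), and that of all regions 61100. The lost region with the best mean asynchronous rank lay on chromosome 2 from 83859624 to 83860798, with ranks of 8159, 7502 and 4853 in asynchronous replicates 1, 2 and 3. It also had no peak in any of the 6 G1E-ER4 lists. The second spanned chromosome 2 from 125725756 to 125727555 and ranked 9854, 2483 and 8329. The third spanned chromosome 12 from 117544385 to 117545138 and ranked 9357, 7815 and 8597. Both had a peak in 2 asynchronous and in no mitotic G1E-ER4 list. The next were chromosome 3 from 37230962 to 37231684, with ranks of 13061, 5793 and 10267, and chromosome 15 from 39789034 to 39790406, with ranks of 14824, 6813 and 7546. In all 5 the asynchronous summits fell within 67 bp of each other, so the 3 libraries marked the same point. None of the 5 had a peak in the authors' pooled mitotic G1E list.

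The gained regions of best mitotic rank were wide. The first spanned 14366 bp of chromosome 15, from 78502588 to 78516953, with ranks of 12415, 11678 and 15519 in mitotic replicates 1, 2 and 3. The second lay on chromosome 11 from 53878799 to 53884260 (ranks 10173, 17350 and 13116) and the third on chromosome 11 from 94423400 to 94430864 (ranks 15641, 15760 and 11343). They were followed by chromosome 11 from 59146917 to 59150664 (ranks 16975, 10650 and 15456) and chromosome 10 from 77636767 to 77645793 (ranks 14692, 11997 and 16575). The mitotic summits stood at 78510569, 78506057 and 78511774 in the first region, so the 3 lists did not mark the same point there. They stood at 53881703, 53881826 and 53881806 in the second and at 94427122, 94427165 and 94427237 in the third. In the fourth they were at 59150005, 59150360 and 59149977, and in the fifth at 77640035, 77640039 and 77640063. All 5 regions had a peak in each of the 6 G1E-ER4 lists, asynchronous ones included. In the first of them the G1E-ER4 ranks were 13516, 29485 and 35168 in asynchronous and 8038, 8583 and 13721 in mitotic lists.

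The strongest kept regions held their places. The first 2 ranks of every list went to chromosome 9 from 3002011 to 3003300 and from 3000001 to 3001606. These lie at the first listed positions of that chromosome, and the kind of sequence there was not analysed here. Next came chromosome 13 from 9010678 to 9011525, with ranks of 3, 9 and 6 in asynchronous and 3, 3 and 4 in mitotic lists. Chromosome 11 from 44628769 to 44629407 ranked 6, 20 and 4 in asynchronous and 6, 4 and 3 in mitotic lists, and its 6 summits lay within 2 bp. The fifth, chromosome 8 from 3754156 to 3754955, ranked 8, 28 and 16 and then 13, 5 and 7. The ranks of the 2 stages overlapped in each of these 5 regions.

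How far the rank limit bears on loss was read from the numbers in the peak names, on the assumption that they count calls. Between the listed peaks that flank a lost region, mitotic replicates 1, 2 and 3 had a median of 12, 7 and 6 calls that the limit removed, over median gaps of 53951, 45825 and 41786 bp. The flanking peaks had consecutive numbers, so that under this assumption no call lay at the region, in 1.27%, 1.92% and 2.48% of cases. For regions that only the list in question lacked, the shares were 0.217%, 0.224% and 0.361%. For 4 of the 7834 lost regions this held in all 3 mitotic lists, and for 387 (4.94%) in at least 1. A removed call cannot be placed within its gap, so for most lost regions a weak mitotic peak can be neither shown nor set aside. For gained regions the share without any call in the gap was 0.137%, 7.37% and 2.69% in asynchronous replicates 1, 2 and 3, against 0 of 584, 4.64% and 0.678% for regions that only that list lacked. The authors' pooled mitotic list held 380 (4.85%) of the lost regions, and the pooled asynchronous list 265 (3.63%) of the gained ones.

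Within the same class of rank, lost sites were narrower and gained sites wider than kept sites. Among regions of mean asynchronous rank 30001 to 50000, the 3387 lost ones covered a median of 429 bp per list and the 2634 kept ones 1355 bp, at median ranks of 39164 and 39558. Among regions of mean mitotic rank 20001 to 30000, the 673 gained ones covered 2487 bp and the 2936 kept ones 1480 bp. Their median ranks were 26031 and 24642. The width gap was smaller beyond rank 50000, where the 3969 gained ones covered 943 bp and the 1339 kept ones 854 bp. Median ranks there were 62782 and 58168, so the gained ones ranked weaker within both classes. A wide region can meet a peak by its length alone. Summits were therefore compared as well, and 2 summits within 150 bp were taken as the same site. Summit agreement also varies with width, so the other stage was read against the same stage for peaks of like width. For the narrowest 20% of asynchronous peaks at ranks 20001 to 50000, 61.1% ± 4.13 had such a partner in another asynchronous list and 19.9% ± 1.46 in a mitotic list. For the widest 20% the shares were 45.1% ± 2.08 and 27.5% ± 1.53 (SD, n = 3 lists throughout). The mitotic share was thus 32.6% of the asynchronous share for the narrowest and 61.0% for the widest peaks. Mitotic peaks of these ranks ran the opposite way: the narrowest 20% had a partner in an asynchronous list in 43.7% ± 14.2 and in another mitotic list in 34.4% ± 3.80 of cases, and the widest 20% in 13.5% ± 2.11 and 23.9% ± 3.54 (SD, n = 3). These shares by width were computed after the data had been seen and were not tested.

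Over all peaks, summits met those of the same stage more often. The share of asynchronous summits with a partner within 150 bp was 43.5% ± 1.17 in other asynchronous lists and 27.8% ± 5.85 in mitotic lists, and that of mitotic summits was 30.4% ± 3.45 in other mitotic lists and 27.6% ± 1.73 in asynchronous lists (SD over the lists searched, n = 3). Averaged over both directions, the 6 pairs within a stage shared 36.9% and the 9 pairs between stages 27.7%, a difference of 9.26 percentage points (exact permutation test, two-sided, p = 0.1). That is the smallest p that 3 against 3 lists can give, so no comparison of the 6 lists could pass 0.05. Without asynchronous replicate 2 or 3 the difference was 5.08 or 5.53 points. For mitotic summits the comparison depended on the distance allowed. Other mitotic lists held 20.3% ± 3.03 of them and asynchronous lists 20.7% ± 1.39 within 50 bp, a difference in the opposite direction, and 44.8% ± 3.19 and 35.8% ± 2.35 within 500 bp (SD, n = 3). At 50 and 150 bp the shares differed by less than their spread between lists, and at 500 bp by more.

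A lost or gained region had a neighbour of its own class more often than the share of that class, though most neighbours were of another class. A region of all 3 asynchronous lists was lost in 19.2% of cases, and the next such region after a lost one in 30.7%. For gain the shares were 19.7% and 42.6%. Runs of at least 3 neighbours held 25.1% of the lost and 41.0% of the gained regions. The longest run of losses had 12 regions in 140 kb of chromosome 1, from 167788246 to 167927933. The longest run of gains had 23 regions in 582 kb of chromosome 8, from 11977063 to 12558910. Median distances to the nearest kept region were 17959 bp for lost, 24467 bp for gained and 7418 bp for kept regions, and 22.8%, 20.2% and 41.9% of them had a kept region within 5 kb. For regions in a single list the values were 34165 bp and 17.1%, so lost and gained regions lay nearer to kept ones than these did. These are descriptions without a test, and neighbouring regions are not independent.

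Gain was unevenly spread over the chromosomes. Of the regions in all 3 mitotic lists, 28.3% were gained on chromosome 5, 27.2% on chromosome 9 and 27.0% on chromosome 15, against 5.56% on chromosome 4, 6.54% on chromosome 12 and 11.7% on chromosome 1. The asynchronous lists held 10.4% to 16.5% of their peaks on chromosome 1 and 10.8% to 14.6% on chromosome 12. On chromosome 4 they held 13.8%, 4.71% and 5.08%. The shares on chromosomes 5, 9 and 15 were 5.09% to 6.65%, 3.63% to 4.16% and 2.76% to 3.19%. On chromosomes 3 and 10, with 3.62% to 4.18% and 3.67% to 3.89%, the gained shares were 16.2% and 14.3%. Whether gain follows the density of asynchronous peaks was not tested. Loss ranged from 12.7% of asynchronous regions on chromosome 12 to 28.1% on chromosome 3. The share of a list's peaks was higher in each mitotic than in each asynchronous list on chromosomes 5, 7, 11 and 15 (4 of 19 chromosomes, 21.1%) and lower on chromosomes 3, 10, 12 and 13 (also 4 of 19, 21.1%). On chromosome 11 the shares were 6.53%, 5.52% and 5.84% in asynchronous and 6.61%, 8.26% and 7.99% in mitotic replicates 1, 2 and 3. On chromosome 12 they were 10.8%, 14.6% and 13.6% against 10.6%, 8.15% and 9.42%. The exact permutation p was 0.1 for each of these 8, or 0.238 with Benjamini-Hochberg adjustment for the 19 chromosomes, and none passed. Among the 50000 highest peaks the chromosome 12 difference turned from -3.61 to 0.805 percentage points, and that of chromosome 1 from -2.84 to 0.983. In that setting chromosomes 5, 7, 11 and 15 no longer separated the stages, with differences of 0.442, 0.278, 0.560 and 0.110 points (exact permutation p = 0.3, 0.8, 0.4 and 0.9), while chromosomes 3, 10 and 13 did. Without asynchronous or without mitotic replicate 1, 13 chromosomes separated the stages.

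Median peak width averaged higher in the mitotic lists, but the stages overlapped. Median widths were 763, 356 and 415 bp in asynchronous and 943, 777 and 608 bp in mitotic replicates 1, 2 and 3, and asynchronous replicate 1 lay inside the mitotic range. The means were 511 ± 220 bp and 776 ± 168 bp (SD, n = 3 each), a difference of 265 bp (exact permutation test, two-sided, p = 0.2). Peaks over 3000 bp made up 5.56%, 0.0212% and 0.284% of the asynchronous and 6.60%, 5.10% and 2.12% of the mitotic lists. In G1E-ER4 the means ran the other way, at 807 ± 336 bp in asynchronous and 678 ± 228 bp in mitotic lists (SD, n = 3 each). The difference between the changes of the lines was 394 bp (exact permutation test with line labels exchanged within stage, p = 0.19), which did not pass the threshold, and 200 bp without asynchronous replicate 1 of G1E-ER4.

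**Figure D2:**
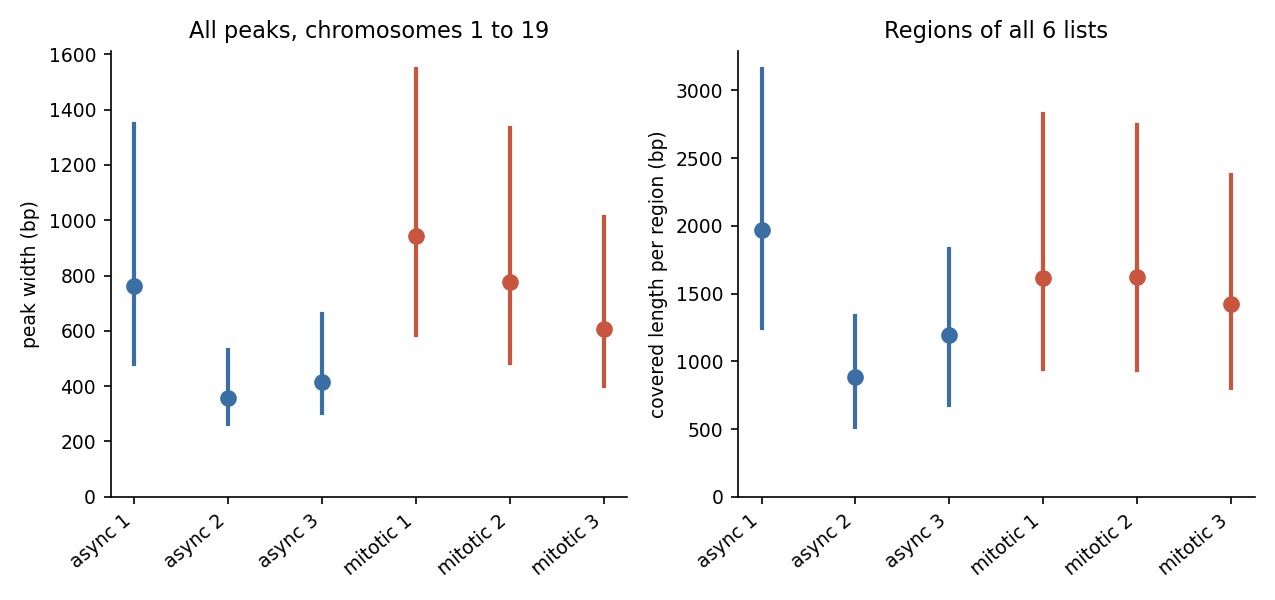
Peak width of each G1E list (left, all peaks) and base pairs each list covers in the regions of all 6 lists (right), in bp. Dots are medians and bars run from the lower to the upper quartile, with asynchronous lists in blue and mitotic lists in red; on the right, asynchronous replicate 1 lies above and asynchronous replicates 2 and 3 lie below all 3 mitotic lists.

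In the kept regions, where every list was read over the same merged regions, the width gap was smaller. A merged region can hold different peaks in different lists. Between 18.9% and 41.9% of the kept regions held 2 or more peaks in a list. The lists covered a median of 1970, 882 and 1191 bp per region in asynchronous and 1613, 1621 and 1423 bp in mitotic replicates 1, 2 and 3. The difference of 205 bp did not exceed the spread (exact permutation p = 0.6). It was 524 bp without asynchronous replicate 1, 61.5 bp without asynchronous replicate 2, 87.5 bp without mitotic replicate 1 and 10.0 bp in the 7198 kept regions with a single peak in each list. Of the kept regions, 2339 (11.3%) were wider and 1280 (6.21%) narrower in all mitotic than in all asynchronous lists. Once each list was divided by its own median, a setting chosen after seeing the data, 3249 (15.8%) were wider and 3264 (15.8%) narrower, and the excess of wider regions was gone. The counts also turned without asynchronous replicate 2 (3192 wider, 3327 narrower) or mitotic replicate 1 (3414 and 3879), and without asynchronous replicate 1 they were 9923 and 1204. Without mitotic replicate 2, 1993 regions were narrower. The largest ratio of mitotic to asynchronous width was 25, on chromosome 15 from 75823170 to 75846665, where asynchronous lists covered 1511, 414 and 644 bp and mitotic lists 22043, 23355 and 18886 bp. The smallest ratio was 0.118, on chromosome 6 from 134492167 to 134495939, with 3413, 1841 and 2740 bp in asynchronous and 367, 275 and 302 bp in mitotic lists. Its summits lay at 134494335, 134494299 and 134494344 in asynchronous and at 134493345, 134493280 and 134494301 in mitotic lists. The peaks compared there thus did not all mark the same point. Both of these regions were chosen among kept regions whose stages did not overlap in width. In the other 4 regions of each kind the ratio ran from 17.2 to 21.0 and from 0.169 to 0.205.

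The stage means of the summits lay close together in narrow kept sites and further apart in wide ones. Over all kept regions, in 5 width classes of about equal number, the median distance between the stage means of the highest summit was 15.0, 31.0, 47.3, 98 and 429 bp from the narrowest to the widest. The distance between replicates of a stage was not computed by width class, so this rise cannot be assigned to stage rather than replicate spread. Wide regions can hold several peaks, and the pairs of lists were therefore compared where each list had a single one. In these 7198 of the 20608 kept regions, the median distance between the summits of 2 lists was 14.0 to 18.0 bp within the asynchronous stage, 17.0 to 29.0 bp within the mitotic stage and 17.0 to 37.0 bp between stages. Pairs between stages exceeded pairs within a stage by 3.67 bp on average (exact permutation test, two-sided, p = 0.1). The mean was 15.7 bp within the asynchronous stage, 24.3 bp within the mitotic stage and 23.7 bp between stages, so the excess came from the asynchronous pairs. Mitotic replicate 1 set the upper values: every pair with it had a median of at least 27.0 bp, and every pair without it at most 21.0 bp. Without that list the excess was 2.83 bp (exact p = 0.1), without mitotic replicate 2 or 3 it was 8.25 or 7.67 bp (exact p = 0.1 each), and without asynchronous replicate 1, 2 or 3 it was 2.83, 1.33 or 1.83 bp (exact p = 0.7, 1.0 and 0.9). With the highest summit of every kept region, single peak or not, the excess was 9.44 bp (exact p = 0.1).

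**Figure D3:**
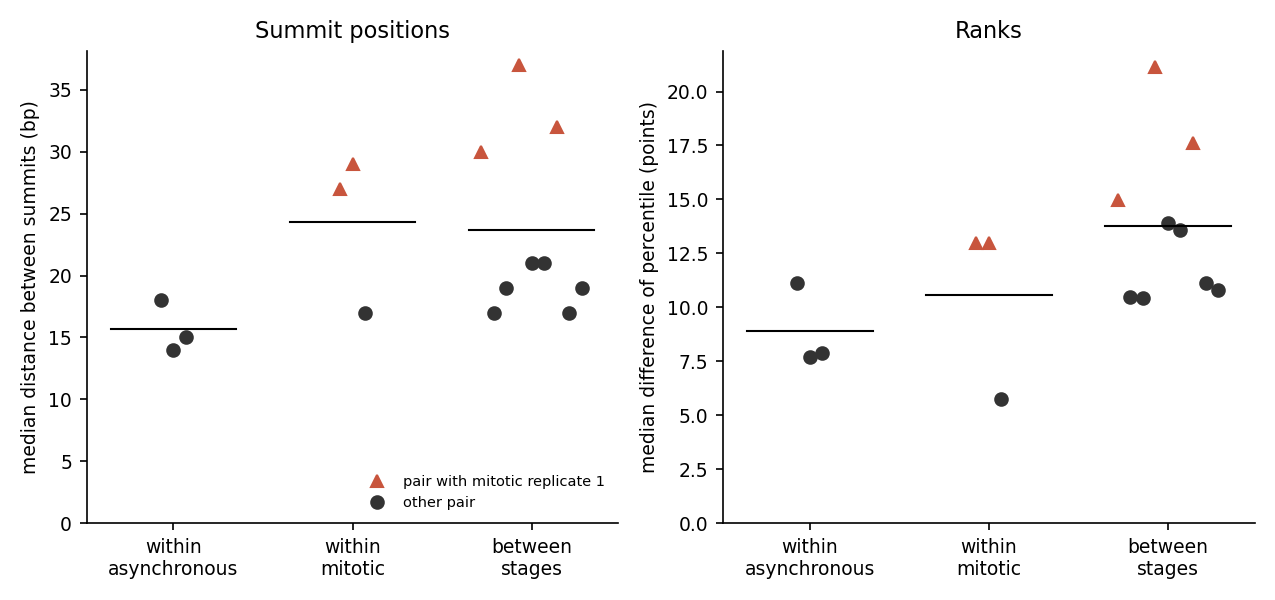
Each point is a pair of G1E lists: median distance between their summits in bp (left, kept regions with a single peak in each list) and median difference of rank percentile (right, all kept regions), with pairs that include mitotic replicate 1 as red triangles and the mean of each class as a line. Without the triangles, summit distances between stages, at 17.0 to 21.0 bp, overlap those within stages.

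A small set of kept sites had their summits apart. In 3704 of the 7198 regions the summits lay within 50 bp of each other inside each stage, and in these the stage means differed by a median of 10.3 bp. The summits of the 2 stages did not overlap in 822 regions (22.2% of the 3704). The stage means were over 50 bp apart in 81 regions (2.19%), over 150 bp in 15 and over 300 bp in 11. The largest shift was 493 bp on chromosome 11 from 59652307 to 59654162, where the asynchronous summits stood at 59653351, 59653376 and 59653355 and the mitotic summits at 59652899, 59652853 and 59652850. The region was among the strong sites of both stages, with ranks of 1094 to 3691. On chromosome 5 from 33998977 to 34002289 the summits stood at 34000682, 34000669 and 34000684 in asynchronous and at 34001118, 34001156 and 34001147 in mitotic lists, a shift of 462 bp. The others were 481 bp on chromosome 1 from 137068479 to 137069637, 440 bp on chromosome 10 from 92543626 to 92545146 and 437 bp on chromosome 7 from 17476752 to 17478404. These regions were chosen for their shift, and the G1E-ER4 lists give the same measure in libraries that did not choose them. On chromosome 5 the G1E-ER4 mitotic summits lay 449, 469 and 466 bp from the mean asynchronous G1E summit toward the mitotic one, and the asynchronous ones at -25, -7 and -2 bp. On chromosome 10 no such separation was seen, with mitotic summits at 7, 6 and 31 bp and asynchronous ones at 17, 3 and -3 bp. On chromosome 11 the mitotic G1E-ER4 summits were split, at 492, 505 and -3 bp, with asynchronous ones at 20, 5 and -6 bp. On chromosome 1 they stood at 456, 393 and 515 bp in mitotic and at 224, -9 and 6 bp in asynchronous lists. On chromosome 7 summits of both positions occurred in both stages of G1E-ER4.

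**Figure D4:**
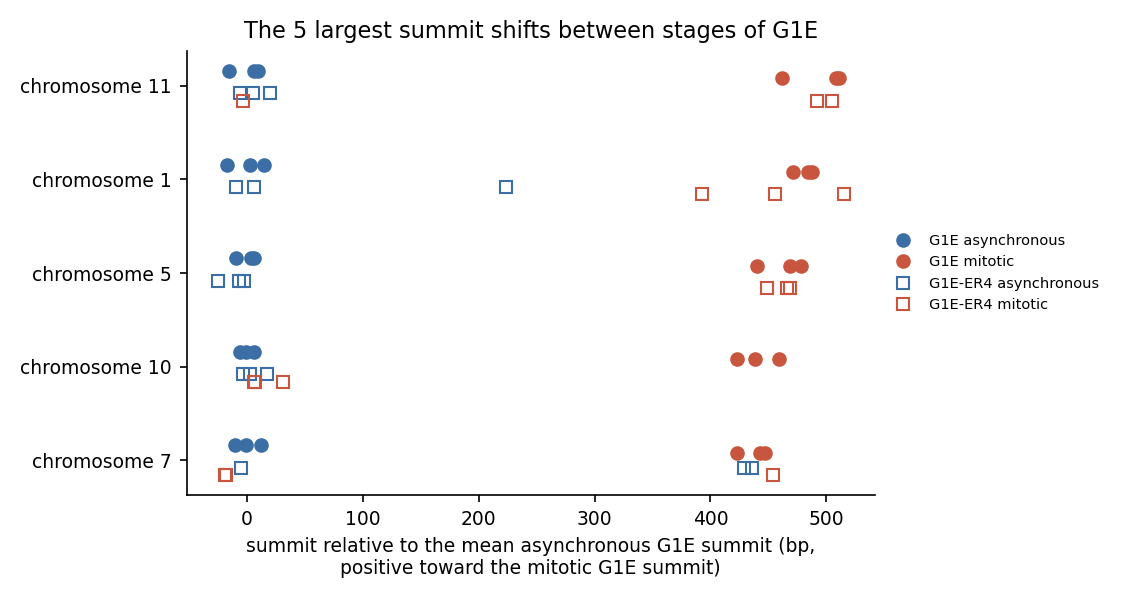
Summit of each list in the 5 kept regions with the largest shift, in bp from the mean asynchronous G1E summit toward the mitotic G1E summit, with G1E as filled circles, G1E-ER4 as open squares, asynchronous in blue and mitotic in red. The G1E-ER4 squares separate by stage on chromosomes 5 and 1, stay near 0 on chromosome 10 and are mixed on chromosomes 11 and 7.

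Over the 65 of the 81 shifted regions that all 6 G1E-ER4 lists held, the mitotic mean lay on the mitotic side of the asynchronous mean in 52 (80.0%), and in 23 (35.4%) the stages also did not overlap. Over the 2863 such regions among all 3704, the shares were 62.5% and 12.1%. On a scale where 0 is the asynchronous and 1 the mitotic G1E summit, the median position was 0.787, 0.371 and 0.375 in asynchronous and 1.07, 0.935 and 0.994 in mitotic G1E-ER4 replicates 1, 2 and 3. The stages did not overlap, and the difference was 0.489 (exact permutation test, two-sided, p = 0.1, the smallest possible). It was 0.352 (exact p = 0.3) when the regions were chosen without asynchronous G1E replicate 1. Without any 1 of the mitotic G1E-ER4 lists it was 0.461 to 0.521 (exact p = 0.2 each).

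The order of the kept regions by signal differed more between the stages than within them on average, but the ranges of the pairs overlapped. Each list's kept regions were re-ranked and expressed as percentiles, with 100 the highest signal. A median region differed by 7.70 to 11.1 percentile points between 2 asynchronous lists, by 5.74 to 13 between 2 mitotic lists and by 10.4 to 21.1 between stages. The mean excess between stages was 4.04 points (13.8 against 9.74, exact permutation test, two-sided, p = 0.1), and 2.61 (without asynchronous replicate 2) to 4.90 points when any 1 list was left out. Without replicate 1 of both stages it was 6.34 points. The pairs between stages that include mitotic replicate 1 had the largest differences, at 15.0, 17.6 and 21.1 points. Without that list the excess was 4.27 points. The percentile was higher in all mitotic than in all asynchronous lists in 3557 of 20608 regions (17.3%) and lower in 3087 (15.0%). These counts became 5430 and 4952 without asynchronous replicate 1, and 6564 and 5508 without mitotic replicate 1. Regions that ranked higher in mitosis were wide, with a median of 3536 bp, against 1793 bp in those that ranked lower. This is the width of the merged peaks of all 6 lists, so the mitotic peaks whose rank is compared set part of it. The median length covered in asynchronous lists was 1715 bp and 1236 bp, a smaller contrast. The width classes that follow use the merged width too. In the narrowest 20% of kept regions 7.08% ranked higher and 24.5% lower, and in the widest 20% 33.6% ranked higher and 5.99% lower.

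The largest difference toward a higher mitotic rank was on chromosome 17 from 6269193 to 6278050, with percentiles of 19.5, 17.4 and 11.4 in asynchronous and 77.4, 68.6 and 71.7 in mitotic replicates 1, 2 and 3. It was followed by chromosome 1 from 94680617 to 94687227, with 2.62, 7.89 and 3.62 against 64.9, 47.1 and 64.7. A narrow region of 798 bp, on chromosome 13 from 23854093 to 23854890, had ranks of 16609, 69812 and 19440 in asynchronous and 7099, 5212 and 2674 in mitotic lists. Its summits stood at 23854628, 23854327 and 23854642 in asynchronous and at 23854334, 23854331 and 23854323 in mitotic lists. The ranks there thus do not all belong to the same point. The other 2 were chromosome 16 from 90070676 to 90074515 and chromosome 1 from 137688728 to 137694640, with differences of 53.6 and 53.5 points. Differences toward a lower mitotic rank were larger. On chromosome 12 from 78184190 to 78187986 the percentiles were 76.9, 84.2 and 85.3 in asynchronous and 2.46, 11.2 and 14.0 in mitotic lists. The covered length there was 3797, 2603 and 2758 bp in asynchronous and 386, 409 and 966 bp in mitotic lists, while its 6 summits lay between 78186381 and 78186457. On chromosome 2 from 102585213 to 102586232 the ranks were 8202, 2556 and 6550 in asynchronous and 70563, 46115 and 97105 in mitotic lists. The remaining differences, of -68.3, -68.2 and -67.1 points, were on chromosome 18 from 50187413 to 50189143, chromosome 15 from 42269484 to 42270405 and chromosome 4 from 49580148 to 49581003. Their mitotic ranks ran from 25357 to 95051, and by the definition of kept regions every mitotic list held a peak there. On chromosome 18 the mitotic summits stood at 50188861, 50188008 and 50188079, and the asynchronous ones at 50188033, 50188003 and 50188029. The peak of mitotic replicate 1 there thus marked another point.

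The same measure was then read in the 6 G1E-ER4 lists, which had no part in choosing these regions. Of the regions that ranked higher in mitotic G1E and were present in all 6 G1E-ER4 lists, 45.6% of 3326 also ranked higher there without overlap of the stages and 1.41% ranked lower, against 17.1% and 13.6% over all 16022 kept regions in those lists. Of the regions that ranked lower in mitotic G1E, 33.0% of 1763 ranked lower and 1.30% higher. These shares cover 3326 of 3557 and 1763 of 3087 regions. The median percentile of the class of higher mitotic rank was 41.2 ± 4.41 in asynchronous and 54.7 ± 2.69 in mitotic G1E-ER4 lists, and that of the class of lower rank 51.1 ± 5.75 and 39.8 ± 4.83 (SD, n = 3 each). Both differences, 13.5 and -11.3 points, had an exact permutation p = 0.1. The first was 7.45 points (exact p = 0.2) when the class was chosen without asynchronous G1E replicate 1, and 8.65 points (exact p = 0.1) without mitotic G1E replicate 1. The second was -8.78 points (exact p = 0.3) without asynchronous G1E replicate 1. Without replicate 1 of both G1E stages, chosen after seeing the data, the differences were 5.45 and -8.39 points (exact p = 0.3 each).

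Regions lost in G1E were also found less in the mitotic than in the asynchronous lists of the other line. They had a peak in 30.1%, 36.1% and 38.6% of cases in asynchronous G1E-ER4 replicates 1, 2 and 3, and in 6.65%, 6.45% and 7.98% in the mitotic ones. The difference of 27.9 percentage points (exact permutation test, two-sided, p = 0.1, the smallest possible) compares with 19.4 points for the 40838 regions of all 3 asynchronous G1E lists, which include the lost ones, 6.81 points for kept regions and 4.18 points for all regions. Whether lost regions differ from the other asynchronous regions in this was not tested. The 27.9 points became 21.1 to 31.6 points when any 1 of the 12 lists was left out. Of the lost regions 44.0% met no peak in the 6 G1E-ER4 lists, against 0.456% of kept regions and 39.9% of all regions, of which 51.7% were in a single G1E list. A further 11.6% of the lost regions had a peak in all 3 asynchronous and no mitotic list, against 2.05% of kept and 2.18% of all regions. The gained regions were present in 89.2%, 52.1% and 52.2% of cases in asynchronous and in 85.3%, 77.9% and 58.9% in mitotic G1E-ER4 lists. For all regions the shares were 41.6%, 30.1% and 30.2%, and 34.9%, 29.2% and 25.3%. Presence needs only 1 bp of overlap, and the lists differed in the length they covered. It was 180, 88.0 and 83.9 Mb in asynchronous and 146, 88.9 and 64.7 Mb in mitotic G1E-ER4 replicates 1, 2 and 3. For gained regions the stages overlapped, and the difference of 9.52 points was within the spread (exact permutation p = 0.6). It was 21.9 points without asynchronous G1E-ER4 replicate 1 and 17.1 without mitotic replicate 3, and 3.30 to 3.87 points without asynchronous replicate 2 or 3 or mitotic replicate 1, and 18.1 points with the 50000 highest peaks of each list. Of the gained regions 26.4% had a peak in all 6 G1E-ER4 lists, against 12% of all regions, and 0.987% had a peak in its 3 mitotic and no asynchronous lists, against 0.429%. Gained regions were wider than all regions, with medians of 1738 and 617 bp, and these shares were not adjusted for width.

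**Figure D5:**
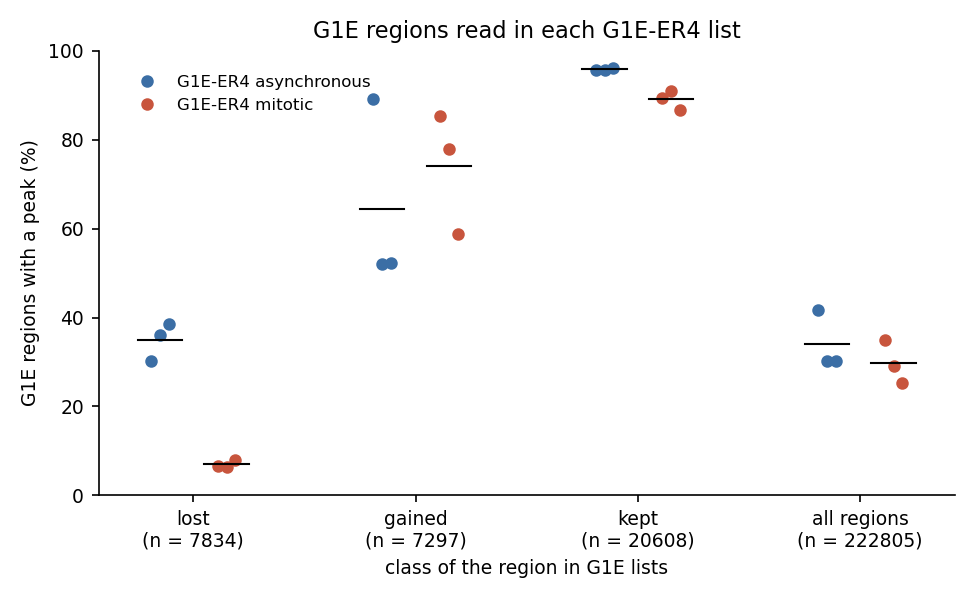
Share of G1E regions (%) with a peak in each G1E-ER4 list, by their class in G1E, with asynchronous lists in blue, mitotic lists in red and the group mean as a line. For lost regions all 3 mitotic values, at 6.45% to 7.98%, lie below all 3 asynchronous ones, and for gained regions the stages overlap.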

How the data were processed

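DNase-seq was analysed from peak lists, 1 per library, of which the 6 of G1E form the comparison. The submitters' processing notes name Bowtie and build mm9. For the Bowtie version and the peak calling no detail was given in those sources. The deposited signal per peak has no stated normalization and was used to order the peaks of each list. The summit offset is the authors' too. No depth or counting error can be stated. The authors' 2 pooled G1E lists were used as an alternative and for look-ups.

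Peaks on chromosomes 1 to 19 were merged at an overlap of 1 bp, positions are counted from 1, and no 2 lists were identical. Tests were exact permutation tests, two-sided, over lists, with 20 arrangements for 6 lists and a threshold of 0.05. Named regions are the 5 of best mean rank or largest change in each class; a class of change needs stages that do not overlap, or for summits a range of at most 50 bp within each stage. The members, tests and classes were chosen with earlier results of these data known. Readings of rank, width and summit classes in G1E-ER4 were added after the data were seen. Alternatives were leaving out lists, the 50000 highest peaks, 300 bp around summits, other overlap and presence rules, and labels exchanged within replicate numbers. The procedure was tested on simulated data. Gene lists fixed for an mm9 annotation were not used here. Python 3.11.15, numpy 2.4.6, pandas 2.3.3 and matplotlib 3.10.9 were used.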

Additional observations from a re-analysis of the deposited data

How the results depend on the processing

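Directions held in every alternative run for the tested differences of the 6 lists and for the readings in G1E-ER4. No named region of change turned wherever a value could be computed, but this is a weak check. These regions were chosen for stages that lay fully apart, so leaving out a list could hardly turn them. Named lost, gained and kept regions have no direction that could turn. Shares per chromosome turned direction in 9 of 133 alternative values. Leaving out 1 list moved the chromosome 6 difference between -0.109 and 0.0535 percentage points, with 0.0318, 0.0535, 0.00547 and 0.0145 without asynchronous replicate 2 or 3 or mitotic replicate 1 or 3. That of chromosome 4 moved between -0.735 (without mitotic replicate 1) and 5.17, and among the 50000 highest peaks those of chromosomes 1, 9, 12 and 19 became 0.983, -0.448, 0.805 and -0.260. Counts depended on the rules. The 50000 highest peaks gave 4143 gained regions and 2257 and 2054 kept regions of higher and lower mitotic rank. Presence in at least 2 of 3 lists gave 19349 lost, 21288 gained and 34765 kept regions, and the authors' pooled lists 42020, 48241 and 48276. Leaving out 1 list gave 9077 to 12517 lost and 8067 to 14033 gained regions, 4379 to 6564 kept regions of higher and 3802 to 5508 of lower mitotic rank, and 8 to 13 chromosomes that separated the stages. Without replicate 1 of both stages there were 14475 lost and 19542 gained regions, and 9534 kept regions of higher and 8391 of lower mitotic rank. The cause was not tested, except that fewer lists make each pattern easier to meet. With 300 bp around each summit there were 8314 lost, 4878 gained and 14192 kept regions.

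Exchanging labels only within replicate numbers (the replicate block, 8 arrangements, smallest p 0.25) left each difference as it was, at 9.26 percentage points of summit recovery, 265 bp of width, 205 bp in kept regions, 3.67 bp of summit distance and 4.04 percentile points, with exact permutation p = 0.25, 0.25, 0.75, 0.25 and 0.25. Same-numbered lists deviated together with correlations of 0.282, 0.131 and 0.0825 over kept regions, and lists of different number with -0.282 to 0.246. The numbers were not taken to pair the samples. Replicate 1 of both stages had the highest of these correlations and shared the excess of peaks on chromosome 4, and a common origin of these lists was not tested. The rank limit and unknown depth bound all statements on absence.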
